A study of Mus musculus with 11 samples.

Results

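The glycolysis enzymes examined here are the products of 10 genes, Hk1, Hk2, Gpi1, Pfkl, Pfkp, Aldoa, Pgk1, Pgam1, Pkm and Ldha, chosen by name as enzymes of the route from glucose to lactate. All 10 symbols were found among the 12787 genes listed for the tissue, so no member was lost to the authors' filter on low counts. RNA was sequenced from the gonadal white adipose tissue (WAT) of 11 male C57BL/6J mice, with 1 library from each mouse. Every mouse was fed a high fat diet (HFD, 60% fat) for 20 weeks. The diet of 6 mice also contained 0.06% w/w iodomethylcholine (IMC), a small molecule that blocks the conversion of choline to trimethylamine by gut bacteria, and the other 5 mice were the HFD controls. The study dropped a further control library for quality. The series text places all mice on the HFD before the comparison, and neither the age of the mice nor the length of IMC feeding is given in the labels. In the labels nothing but the mouse number separates the mice of a group. Each p-value thus sets a difference between the groups against the spread between these mice. The paper describes group housing with more than 1 cage per condition. The labels name no cage, so mice that shared a cage were treated as independent.

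Glycolysis splits glucose to pyruvate in the cytosol and returns a small net gain of ATP. Hexokinase traps glucose in the cell as glucose 6-phosphate, phosphofructokinase commits it to the pathway, and pyruvate kinase makes the last ATP-yielding step, while lactate dehydrogenase turns pyruvate into lactate and regenerates NAD+. In adipocytes the route is fed by the insulin-responsive glucose transporter and supplies the glycerol backbone of triglyceride and carbon for fatty acid synthesis, and in macrophages it is used heavily when the cells are activated. Several steps are served by isozymes encoded by different genes, which differ in regulation and in the tissues that use them.

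Expression was read as log2 CPM, the log2 of read counts scaled to library size (CPM) after the authors' upper-quartile normalisation, and a difference of 1 on this scale is a doubling. Depth was 22320022 to 25155366 reads on listed genes, and the groups did not differ in it beyond their spread (exact permutation p = 0.154). Groups were compared with limma on all listed genes, with an adjusted p (Benjamini-Hochberg over all 12787 genes) under 0.05 taken as a call. Of the 10 members, 4 were higher in IMC-treated mice (Hk2, Pfkl, Aldoa and Ldha), 2 were lower (Hk1 and Pkm) and 4 were not called (Gpi1, Pfkp, Pgk1 and Pgam1). Calls were common in the tissue as a whole, with 40.9% of all listed genes called, 20% higher and 21.0% lower. This near-even split depends on the scaling, with 2202 genes higher and 3261 lower under total-count scaling and 2646 higher and 2531 lower under median-of-ratios scaling (limma). The groups did not overlap, with every mouse of one group above every mouse of the other, for the same 6 called members, against 23.1% of all genes. The median log2 fold change was -0.09 over the members and -0.03 over all genes. Fold changes of the members ran from -0.50 for Hk1 to 0.86 for Hk2, so both ends of this range were hexokinases.

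**Figure D1:**
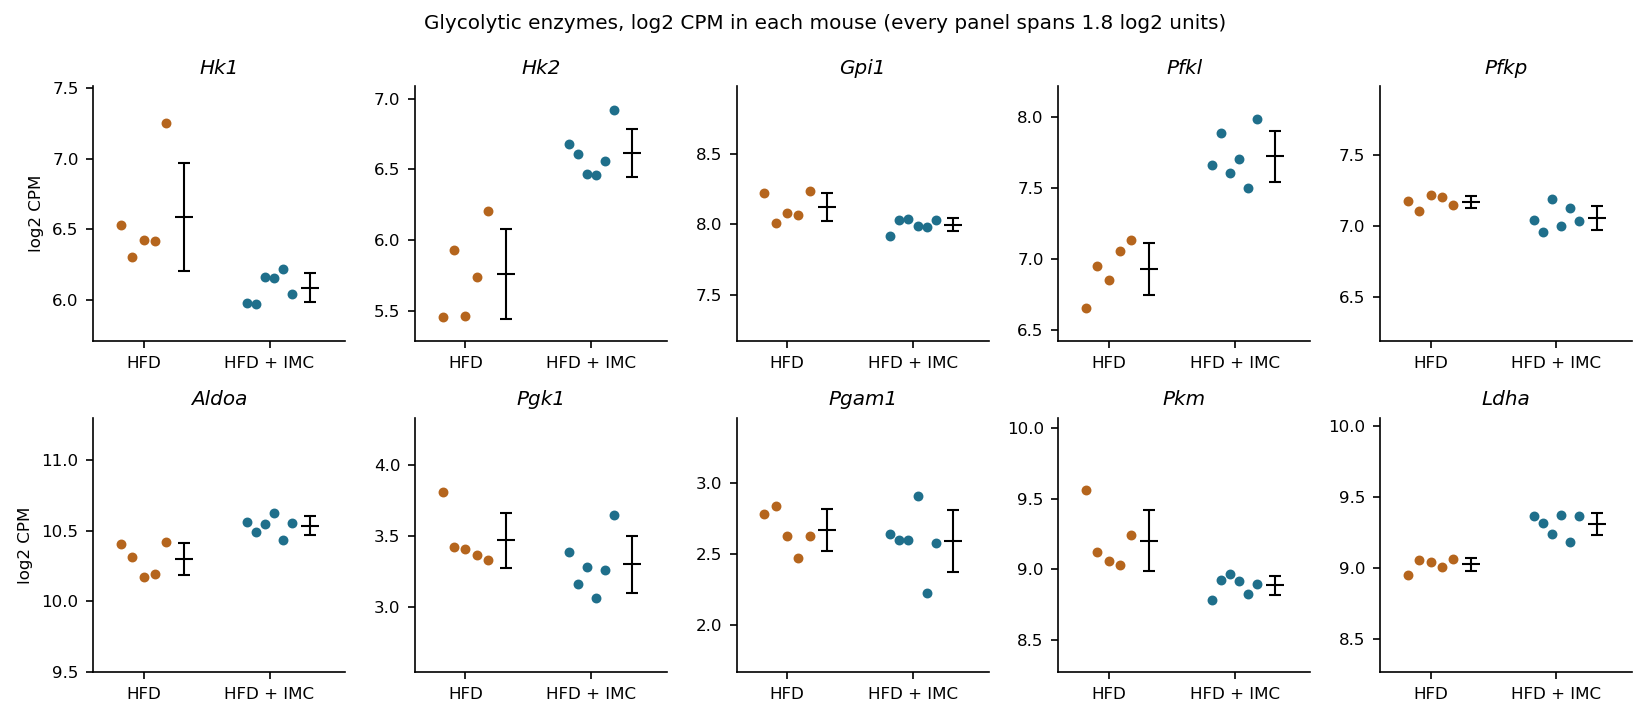
Level of each of the 10 members in every mouse, in log2 CPM on the vertical axis, with 5 HFD mice (brown) and 6 IMC-treated mice (blue); the horizontal dash and bar beside each group are the mean and SD. The groups stand fully apart for Hk2, Pfkl, Aldoa and Ldha (IMC above) and for Hk1 and Pkm (IMC below), with 1 HFD mouse at 7.25 log2 CPM for Hk1.

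The 4 sequences that follow are the 250 bases upstream of a RefSeq transcription start (GRCm38.p6, the same build as mm10), read 5′ to 3′ on the gene's strand. They are shown for the hexokinase pair that moved in opposite directions and for Pfkl and Ldha, the other called members with the smallest p. Capitals mark ACGTG, the core of the element bound by hypoxia-inducible factors, or its reverse complement CACGT. The windows lie at chr6:82774455-82774704 (minus strand) for Hk2, chr10:62340422-62340671 (minus strand) for the inner of the 2 starts of Hk1, chr10:78009808-78010057 (minus strand) for Pfkl and chr7:46845554-46845803 (plus strand) for Ldha.
Hk2: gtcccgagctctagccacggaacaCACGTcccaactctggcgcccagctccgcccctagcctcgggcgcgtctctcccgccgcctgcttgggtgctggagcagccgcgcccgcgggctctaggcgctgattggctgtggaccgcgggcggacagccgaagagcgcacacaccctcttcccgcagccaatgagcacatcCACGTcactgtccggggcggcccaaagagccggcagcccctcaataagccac
Hk1: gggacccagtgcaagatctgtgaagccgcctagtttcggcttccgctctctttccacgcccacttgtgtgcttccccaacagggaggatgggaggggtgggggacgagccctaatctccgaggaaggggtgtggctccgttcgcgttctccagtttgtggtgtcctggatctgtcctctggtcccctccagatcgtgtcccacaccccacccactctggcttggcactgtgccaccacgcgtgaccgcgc
Pfkl: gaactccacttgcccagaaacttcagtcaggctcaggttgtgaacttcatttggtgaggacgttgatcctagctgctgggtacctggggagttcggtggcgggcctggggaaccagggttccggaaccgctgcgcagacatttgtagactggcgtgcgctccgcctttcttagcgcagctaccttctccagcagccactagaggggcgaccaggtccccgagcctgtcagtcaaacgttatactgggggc
Ldha: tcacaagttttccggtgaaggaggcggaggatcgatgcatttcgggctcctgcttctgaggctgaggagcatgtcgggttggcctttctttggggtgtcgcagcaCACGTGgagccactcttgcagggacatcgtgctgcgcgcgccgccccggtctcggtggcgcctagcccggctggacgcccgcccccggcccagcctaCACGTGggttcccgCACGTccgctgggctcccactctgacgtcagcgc

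The Hk2 window held 2 matches to ACGTG on either strand and the Ldha window held 5, while the Hk1 and Pfkl windows shown held none. Ldha has a second RefSeq window, at chr7:46846832-46847081, and it held none either. The bases after the Ldha window shown, and after the Pgam1 window, were not found in GENCODE coding transcripts of these genes. Those after the second Ldha window were found. In the Ldha window shown, 2 matches were to the palindrome CACGTG, the E-box read by carbohydrate-response and clock factors, and each of these was counted on both strands. Over all RefSeq windows of this length, 16.6% of 32851 held ACGTG and 6.02% held CACGTG. Of the members, 6 of 10 had at least 1 window with ACGTG, namely Hk2, Aldoa, Pgk1, Pgam1, Pkm and Ldha, against 18.5% of all genes, and 7 of the 15 windows of all 10 members held it. Of these 7 windows, 2 are windows of Aldoa that overlap and hold the same single match, so that match is counted in both. The group of 6 members mixes 3 that were higher, 1 that was lower and 2 that were not called. A match is a description of letters, and binding was not measured here.

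The 2 hexokinases among the members differed in direction. Hk2, the insulin-responsive isozyme of muscle and fat, had 5.46, 5.93, 5.47, 5.74 and 6.21 log2 CPM in HFD mice 1 to 5, and between 6.46 and 6.92 with a median of 6.59 in IMC-treated mice. All IMC-treated mice were above the highest control. The mean rose from 5.76 ± 0.32 (SD, n = 5) to 6.62 ± 0.17 (SD, n = 6), a log2 fold change of 0.86 ± 0.13 (SE) or 1.81-fold (limma, adjusted p = 2.6e-04). Hk1, the isozyme found in most cells and bound to mitochondria, had 6.53, 6.30, 6.43, 6.42 and 7.25 log2 CPM in HFD mice 1 to 5, and between 5.97 and 6.22 with a median of 6.10 in IMC-treated mice. Here the groups were separated by only 0.08 log2 units, and HFD mouse 5 stood above its own group. Hk1 fell by 0.50 ± 0.14 (SE) on the log2 scale (limma, adjusted p = 0.011). Without HFD mouse 5 the change was -0.33 ± 0.06 (SE) and was still called (limma, adjusted p = 0.0017).

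Because HFD mouse 5 sets the size of the Hk1 change, its other values are given. It had the highest level of the HFD mice for 6 of the 10 members, Hk1, Hk2, Gpi1, Pfkl, Aldoa and Ldha, and the lowest for Pgk1. By comparison, it was the highest of the HFD mice for 3252 of all 12787 listed genes. Over all listed genes, 43 were more than 0.5 log2 units above all other mice in HFD mouse 5, fewer than the 71 in HFD mouse 1 and the 53 in HFD mouse 4. Among the genes around glycolysis it also stood apart for Slc2a3, a high-affinity glucose transporter, at 4.38 log2 CPM against 2.93 to 3.43 in the other HFD mice. Of 20 male germ cell genes, a list written after the values were seen, 6 were listed, and HFD mouse 5 had the highest level of the HFD mice for all 6. Because the list followed the values, this count is a description and tests nothing. Between the groups, 2 of the 6 were called higher with IMC and 3 lower (limma), against 20% and 21% of all listed genes. Their log2 fold changes ran from -0.72 to 0.61. The summed level of these 6 genes was 61.3 CPM in this mouse, 29.5 to 32.0 CPM in the other HFD mice and 30.9 to 39.2 CPM in IMC-treated mice. The defining germ cell genes Prm1, Prm2, Tnp1 and Tnp2 and the germ cell isozymes Pgk2, Ldhc and Gapdhs were not listed, and the part of such genes in the Hk1 value was not tested.

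The remaining hexokinase in the table was Hk3, an isozyme known mainly from myeloid cells and not a member of the set. Hk3 had 7.99, 7.71, 7.73, 7.59 and 7.63 log2 CPM in HFD mice 1 to 5 and between 6.69 and 7.31 with a median of 7.06 in IMC-treated mice. It fell by 0.68 ± 0.11 (SE) on the log2 scale (limma, adjusted p = 5.6e-04), with no overlap between the groups. Within each mouse, the log2 ratio of Hk2 to Hk1 was -1.08, -0.37, -0.96, -0.68 and -1.05 in HFD mice 1 to 5 and between 0.31 and 0.88 in IMC-treated mice. Hk2 reads were thus fewer than Hk1 reads in every HFD mouse and more in every IMC-treated mouse, and the group means differed by 1.36 log2 units (two-sided exact permutation test over every split of the mice, p = 0.00216, the smallest these group sizes allow, and 0.00361 after Benjamini-Hochberg adjustment over 5 ratios). Hk2 and Hk1 each separated the groups, in opposite directions, so their ratio had to separate them too. Its p-value restates those calls and is no further test. Against Hk1, the log2 ratio of Hk3 differed by -0.19 between the groups (exact permutation p = 0.370). Without HFD mouse 5 this difference was -0.38 (exact permutation p = 0.00952, adjusted 0.0119).

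Divided by transcript length, the 3 hexokinases could be set against each other. Hk3 took the largest share of hexokinase CPM per kilobase in both groups, at 66.9% ± 6.64 in HFD mice and 54.8% ± 5.30 with IMC (SD, n = 5 and 6). The share of Hk2 was 10.1% ± 2.09 in HFD mice and 24.0% ± 4.76 in IMC-treated mice (SD, same n), with ranges of 7.32% to 12.1% and 19.6% to 31.6% that did not meet. Hk1 held 23.1% ± 5.27 and 21.1% ± 0.638 (SD, same n), with ranges of 19.5% to 32.3% and 20.4% to 22.2% that overlap. The summed level of the 3 genes was 99.6 ± 9.42 CPM per kilobase in HFD mice and 75.5 ± 6.55 in IMC-treated mice (SD, n = 5 and 6), with ranges of 89.6 to 110 and 68.9 to 81.9. With the full exon length of each gene in place of its longest coding transcript, the shares in HFD and IMC-treated mice were 73.6% and 59.4% for Hk3, 11.8% and 27.5% for Hk2 and 14.6% and 13.1% for Hk1. The level of a share thus depends on the length used, most of all for Hk1.

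**Figure D2:**
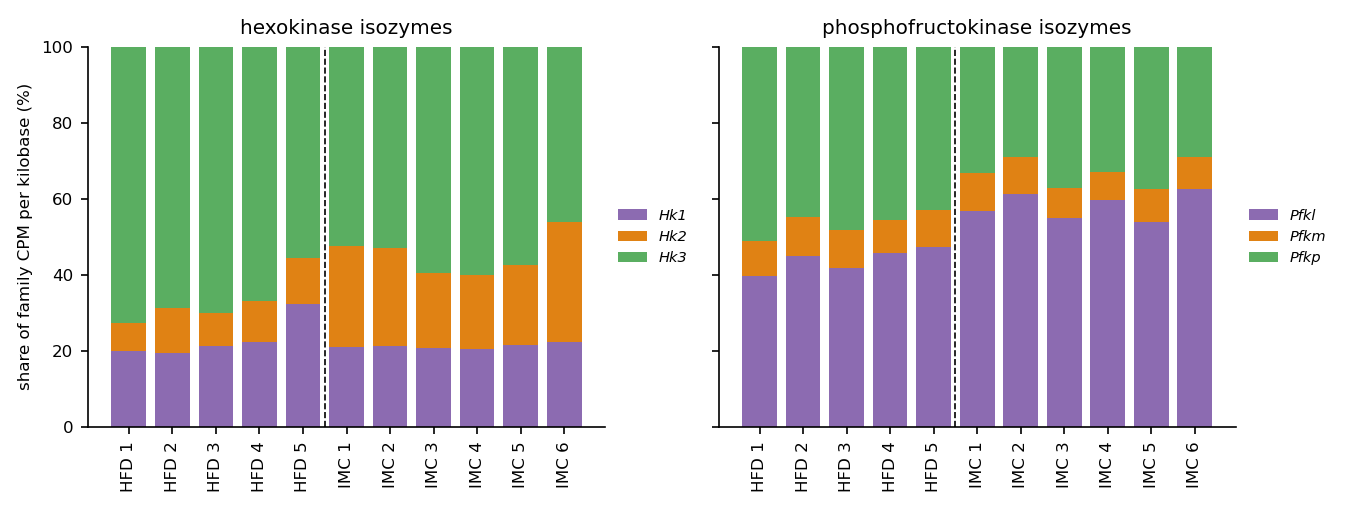
Share of each isozyme in the summed CPM per kilobase (longest coding transcript) of its family (vertical axis, %), 1 bar per mouse, with HFD mice left of the dashed line and IMC-treated mice right of it. Hk2 (orange, left panel) holds at most 12.1% in HFD mice and at least 19.6% in IMC-treated mice, and Pfkl (purple, right panel) at most 47.3% and at least 53.9%.

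Gpi1, which isomerises glucose 6-phosphate to fructose 6-phosphate, had 8.22, 8.01, 8.08, 8.07 and 8.24 log2 CPM in HFD mice 1 to 5 and between 7.92 and 8.04 with a median of 8.01 in IMC-treated mice. The ranges overlap at their edges, by 0.03 log2 units. The log2 fold change was -0.13 ± 0.05 (SE) and missed the threshold (limma, adjusted p = 0.063). Total-count scaling, which shifts the median of all genes by -0.03 log2 units, gave -0.16 with an adjusted p of 0.022 (limma), so this call depends on the scaling.

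At the phosphofructokinase step the isozymes parted. Pfkl, named for liver, had 6.66, 6.95, 6.85, 7.05 and 7.14 log2 CPM in HFD mice 1 to 5 and between 7.50 and 7.99 with a median of 7.68 in IMC-treated mice. The groups were 0.36 log2 units apart at their nearest, the widest gap among the members. Pfkl rose from 6.93 ± 0.19 (SD, n = 5) to 7.73 ± 0.18 (SD, n = 6), by 0.79 ± 0.10 (SE) on the log2 scale (limma, adjusted p = 7.6e-05), the smallest p of the 10 members. Pfkp, named for platelets, lay between 7.10 and 7.22 log2 CPM in HFD mice and between 6.96 and 7.19 in IMC-treated mice. Its fold change of -0.11 ± 0.05 (SE) was not called (limma, adjusted p = 0.079), with -0.14 and an adjusted p of 0.025 under total-count scaling. Pfkm, named for muscle and not a member, had a mean of 4.36 log2 CPM in HFD mice and 4.61 in IMC-treated mice and was not called (limma, adjusted p = 0.065).

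The log2 ratio of Pfkl to Pfkp was below 0 in every HFD mouse, at -0.52, -0.15, -0.37, -0.15 and -0.01 in mice 1 to 5, and above 0 in every IMC-treated mouse, between 0.37 and 0.95. The group means differed by 0.91 log2 units, and those of Pfkm to Pfkl by -0.55 (both two-sided exact permutation p = 0.00216, adjusted 0.00361). The gap between the groups in Pfkl was wider than the range of Pfkp over all mice. The ratio of Pfkl to Pfkp therefore had to separate the groups, and its p-value is no further test. Per kilobase of transcript, Pfkl made up 43.9% ± 3.09 of phosphofructokinase CPM in HFD mice and 58.2% ± 3.53 with IMC (SD, n = 5 and 6). The share of Pfkp went the other way, with 46.6% ± 3.21 and 33.1% ± 3.71 (SD, same n), and that of Pfkm was at most 10.2% in any mouse. The sum of the 3 genes was 74.8 ± 4.47 CPM per kilobase in HFD mice and 97.9 ± 7.05 in IMC-treated mice, and the ranges of 68.1 to 79.7 and 90.0 to 109 did not meet. With full exon length the shares in HFD and IMC-treated mice were 51.9% and 64.6% for Pfkl, 30.6% and 20.4% for Pfkp and 17.5% and 15.0% for Pfkm, and the sums were 35.3 and 49.3 CPM per kilobase. The levels therefore rest on the length used, while the direction between the groups was the same for each isozyme with both lengths. Hexokinase and phosphofructokinase sums differed between the groups in opposite directions.

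**Figure D3:**
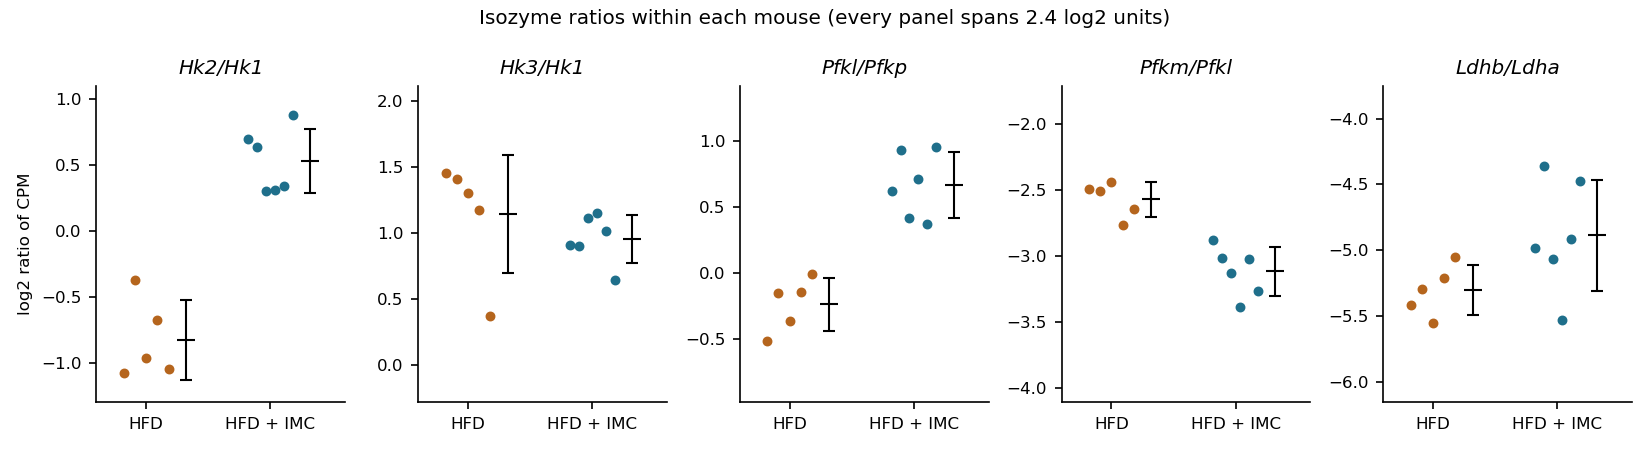
Log2 ratio of the CPM of isozyme pairs within each mouse (vertical axis), HFD brown and IMC-treated blue, with mean and SD beside each group. Hk2/Hk1 and Pfkl/Pfkp lie below 0 in all 5 HFD mice and above 0 in all 6 IMC-treated mice, and the HFD mouse at 0.37 for Hk3/Hk1 is mouse 5.

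Aldoa, the aldolase of most tissues, was the most abundant member, with 10.40, 10.31, 10.17, 10.19 and 10.42 log2 CPM in HFD mice 1 to 5 and between 10.44 and 10.63 with a median of 10.55 in IMC-treated mice. The lowest IMC-treated mouse was only 0.01 log2 units above the highest control. Aldoa rose by 0.24 ± 0.07 (SE) on the log2 scale, or 1.18-fold (limma, adjusted p = 0.014), and remained called with each mouse left out, at an adjusted p of up to 0.045. Aldoc, the brain-type aldolase, was not listed. Tpi1, the triose phosphate isomerase that acts on the products of aldolase and is not a member, rose by 0.38 ± 0.05 (SE) on the log2 scale (limma, adjusted p = 6.8e-05), from 8.52 to 8.90 log2 CPM.

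The middle steps were read from few counts. Pgk1, which makes the first ATP of the payoff phase, had 3.81, 3.42, 3.41, 3.36 and 3.33 log2 CPM in HFD mice 1 to 5 and between 3.06 and 3.65 with a median of 3.27 in IMC-treated mice. Pgam1, which moves the phosphate of phosphoglycerate, had 2.79, 2.84, 2.63, 2.47 and 2.63 log2 CPM in HFD mice 1 to 5 and between 2.22 and 2.91 with a median of 2.60 in IMC-treated mice. Neither was called, with log2 fold changes of -0.17 ± 0.11 (SE, limma, adjusted p = 0.26) for Pgk1 and -0.08 ± 0.12 (SE, limma, adjusted p = 0.62) for Pgam1, and the groups overlapped in both. Without HFD mouse 1, the highest control for Pgk1, its log2 fold change was -0.08. Between them, these genes had 115 to 311 reads per mouse, against 27436 to 39277 for Aldoa. Gapdh, the enzyme between Aldoa and Pgk1 in the pathway, was listed with 12 to 35 reads per mouse, and Eno1, the main enolase, was not listed.

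These low levels go with sequence shared with other genes. In the GENCODE transcripts of the same build, 68.0% of the 50-base stretches of Pgk1 also occur in transcripts of other genes, 41.5% of those of Pgam1 and 82.5% of those of Gapdh, the last in 222 genes. STAR, the authors' aligner, counts for a gene only reads that align to a single place, so reads from such stretches could have been left out or placed elsewhere, and the levels of Pgk1, Pgam1 and Gapdh are uncertain. Eno1 and Eno1b, both not listed, share 72.2% and 84.5% of their stretches with other genes, each other included. Their absence from the list is therefore no measure of their level. For the other members the share was 34.4% for Pkm, 25.3% for Gpi1, 17.1% for Pfkp, 16.6% for Ldha, 13.5% for Aldoa, 2.55% for Hk1, 0.05% for Pfkl and 0 for Hk2. The shared stretches of Pfkp are all with Pitrm1 and those of Hk1 all with Hk1os, each overlapping its partner on the opposite strand. These are the same bases of the genome, so this sharing alone would not make a read align to more than 1 place. Aldoa overlaps Fam57b on the opposite strand. Antisense or noncoding genes overlap Hk1, Hk2, Gpi1 and Pkm, while Pfkl, Pgk1, Pgam1 and Ldha overlap none. The strand setting of the count is not given in the sources used here, so reads of overlapping genes could not be told apart.

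**Figure D4:**
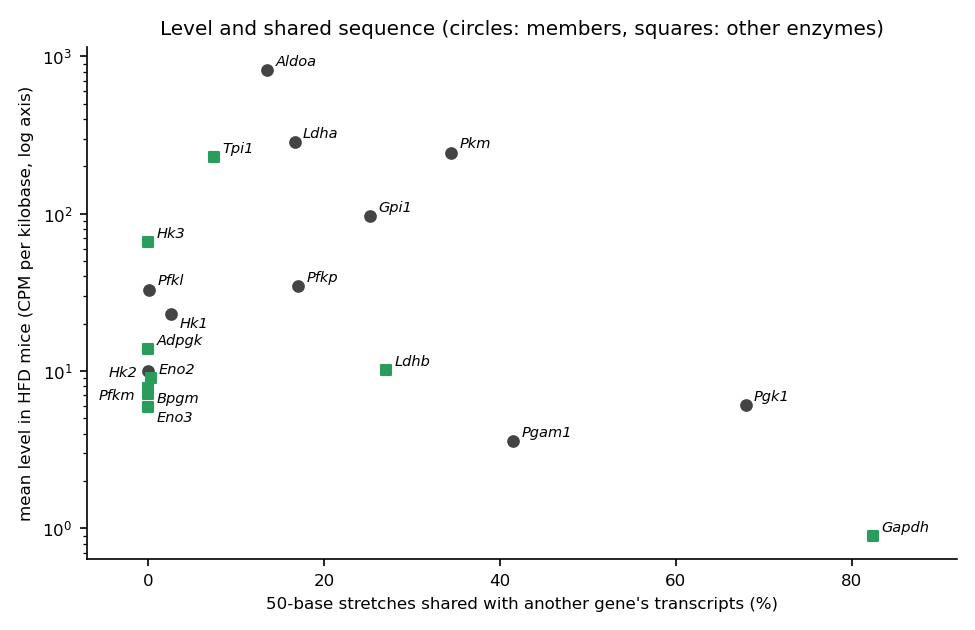
Mean level of each glycolytic enzyme in HFD mice (vertical axis, CPM per kilobase, log scale) against the share of its 50-base stretches found in transcripts of other genes (horizontal axis, %); circles are the 10 members and squares the other 9 listed enzymes. Gapdh at 82.5%, Pgk1 at 68.0% and Pgam1 at 41.5% have the highest shares and 0.897, 6.11 and 3.60 CPM per kilobase.

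Pkm, the pyruvate kinase gene whose splicing gives the M1 and M2 forms, had 9.56, 9.12, 9.06, 9.03 and 9.24 log2 CPM in HFD mice 1 to 5 and between 8.79 and 8.96 with a median of 8.91 in IMC-treated mice. The HFD mice were all higher, by 0.07 log2 units at the nearest point, with mouse 1 highest. Pkm fell by 0.32 ± 0.08 (SE) on the log2 scale, to 0.80 of the control level (limma, adjusted p = 0.0099). Values per gene do not tell the M1 and M2 forms apart. Enolases supply the substrate of pyruvate kinase, and Eno1, the main enolase, was not listed. Of those listed, Eno2 had a log2 fold change of -0.53 ± 0.10 (SE, limma, adjusted p = 0.0014), and Eno3 was not called at -0.11 ± 0.11 (SE, limma, adjusted p = 0.435).

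Ldha, the lactate dehydrogenase subunit that favours lactate, had 8.95, 9.06, 9.04, 9.01 and 9.06 log2 CPM in HFD mice 1 to 5 and between 9.18 and 9.37 with a median of 9.34 in IMC-treated mice. The control mice lay close together and all IMC-treated mice were above them, by 0.12 log2 units at the nearest point. The mean went from 9.02 ± 0.04 (SD, n = 5) to 9.31 ± 0.08 (SD, n = 6), a rise of 0.28 ± 0.05 (SE) or 1.22-fold (limma, adjusted p = 8.6e-04). Ldhb, the heart-type subunit and not a member, rose by 0.70 ± 0.18 (SE, limma, adjusted p = 0.0079) from 3.72 to 4.42 log2 CPM, with overlapping groups. The log2 ratio of Ldhb to Ldha differed by 0.42 between the groups, which did not pass the test (two-sided exact permutation p = 0.0736, adjusted 0.0920). Ldha made up 96.6% ± 0.436 (SD, n = 5) and 95.4% ± 1.27 (SD, n = 6) of lactate dehydrogenase CPM per kilobase.

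**Figure D5:**
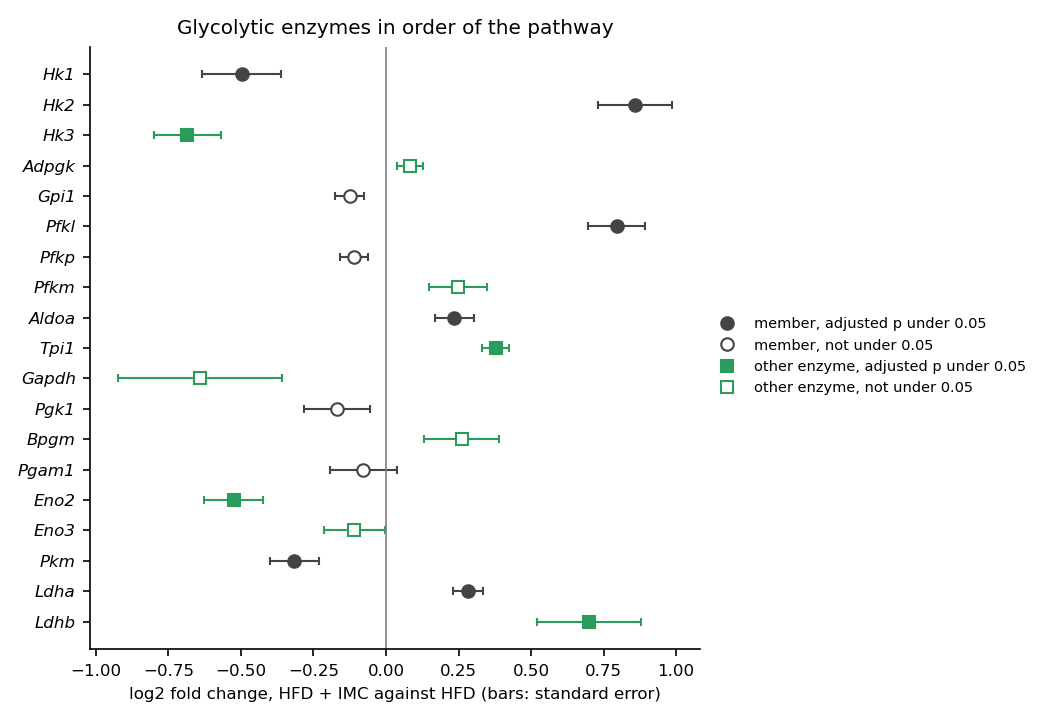
Log2 fold change of IMC-treated against HFD mice (horizontal axis, bars are the limma standard error) for the 10 members (circles) and the 9 other listed enzymes (squares) in the order of the pathway; filled symbols passed an adjusted p of 0.05. Filled symbols lie on both sides of 0, from -0.68 for Hk3 to 0.86 for Hk2.

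In CPM per kilobase of transcript, which lets genes be ranked, the order in HFD mice was Aldoa (816), Ldha (287), Pkm (245), Gpi1 (96.9), Pfkp (34.7), Pfkl (32.9), Hk1 (23.2), Hk2 (10.03), Pgk1 (6.11) and Pgam1 (3.60). The places of Pgk1 and Pgam1 are uncertain, since 68.0% and 41.5% of their 50-base stretches are shared with other genes. For Pkm and Gpi1 the shares are 34.4% and 25.3%, and reads could be missing there too. The ranges over mice overlap between Ldha and Pkm, between Pfkp and Pfkl and between Pfkl and Hk1, so the order of these neighbours was not separated from the spread between mice. In IMC-treated mice Pfkl (57.1) stood above Pfkp (32.2), with no overlap of their ranges. By the mean, Hk2 (17.9) and Hk1 (15.9) had also changed places in that group, and there the ranges of 16.01 to 22.0 and 14.7 to 17.4 overlap. Within IMC-treated mice 3, 4 and 5, Hk2 was still below Hk1, with hexokinase shares of 19.8%, 19.6% and 21.1% against 20.7%, 20.4% and 21.4%. This order is the one given by the longest coding transcript, and it depends on the length used, within and between families. With full exon length, Pfkl was above Pfkp in every HFD mouse as well (shares of 48.4% to 54.9% against 27.6% to 34.5%). Hk2 and Hk1 shares then overlapped in HFD mice (8.41% to 14.7% against 12.1% to 21.3%) and were apart in IMC-treated mice (22.4% to 36.2% against 12.6% to 13.8%). Of the other members' neighbours in the IMC-treated mice, Ldha (349) and Pkm (195) no longer overlapped.

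Among the 20 other glycolytic enzyme genes looked up, 9 were listed, 2 of them higher (Tpi1 and Ldhb), 2 lower (Hk3 and Eno2) and 5 not called. This compares with 20% of all listed genes higher and 21% lower. The median log2 fold change of the 9 enzymes was 0.08. The values of those not called were 0.08 ± 0.04 (SE, limma, adjusted p = 0.15) for Adpgk, an ADP-dependent glucokinase, and 0.26 ± 0.13 (SE, limma, adjusted p = 0.12) for Bpgm, the bisphosphoglycerate mutase of red blood cells. Gapdh had -0.64 ± 0.28 (SE, limma, adjusted p = 0.087). Those not listed include Hkdc1, Aldoc, Gapdhs, Pgk2, Pgam2, Eno1, Eno1b, Pklr and Ldhc.

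Among the regulators of the pathway, Pfkfb3 had the largest change. Of 14 looked up, 11 were listed, 6 higher and 2 lower, against 20% and 21% of all listed genes. The median log2 fold change of the 11 was 0.31. Pfkfb3, whose product makes the sugar bisphosphate that activates phosphofructokinase, had 8.05, 8.64, 8.54, 8.75 and 8.80 log2 CPM in HFD mice 1 to 5 and between 9.40 and 9.82 in IMC-treated mice. The groups were 0.60 log2 units apart, and Pfkfb3 rose by 1.11 ± 0.12 (SE, limma, adjusted p = 4.1e-05), or 2.16-fold. The related Pfkfb1 rose by 0.65 ± 0.09 (SE, limma, adjusted p = 1.3e-04), and Epas1, which encodes a hypoxia-inducible factor, by 0.49 ± 0.07 (SE, limma, adjusted p = 2.6e-04).

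Transporter genes of the pathway were called in both directions. Of 11 glucose and lactate transporter genes, 10 were listed, 2 higher and 3 lower, with a median log2 fold change of -0.06. The shares over all listed genes were 20% higher and 21% lower. Slc2a4, the insulin-responsive transporter GLUT4, had 4.68, 5.28, 4.45, 5.08 and 5.30 log2 CPM in HFD mice 1 to 5 and between 5.91 and 6.41 with a median of 6.25 in IMC-treated mice. It rose by 1.26 ± 0.15 (SE, limma, adjusted p = 6.1e-05), or 2.39-fold, and Slc2a12, another transporter of fat and muscle, by 1.10 ± 0.19 (SE, limma, adjusted p = 7.6e-04) from a low level of 29 to 123 reads per mouse. Slc2a6, a transporter known from leukocytes, fell by 0.85 ± 0.15 (SE, limma, adjusted p = 7.0e-04). Slc2a3, set by HFD mouse 5 as above, had a log2 fold change of -0.51 (limma, adjusted p = 0.072) with that mouse and -0.27 (limma, adjusted p = 0.11) without it.

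Side branches of the pathway were read in the same way, beside 20% of all listed genes higher and 21% lower. Of 8 pentose phosphate genes, all listed, 3 were higher and 1 lower, with a median of 0.06. H6pd and G6pdx, the glucose 6-phosphate dehydrogenases of the endoplasmic reticulum and the cytosol, rose by 0.34 ± 0.05 (SE, limma, adjusted p = 1.8e-04) and 0.28 ± 0.06 (SE, limma, adjusted p = 0.0028), and Rpe, an epimerase, by 0.34 ± 0.05 (SE, limma, adjusted p = 2.0e-04). Of 12 glycogen genes, all listed, 6 were higher and 1 lower, with a median of 0.13. Gys2, a glycogen synthase, rose by 0.82 ± 0.11 (SE, limma, adjusted p = 1.6e-04), Pgm2, a phosphoglucomutase gene as the file names it, by 0.62 ± 0.08 (SE, limma, adjusted p = 6.7e-05) and Pygb, a glycogen phosphorylase, by 0.44 ± 0.07 (SE, limma, adjusted p = 3.1e-04).

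Hypoxia-inducible factor also drives genes outside glycolysis, and these served as a comparison. Of 17 looked up, 16 were listed, 5 higher and 2 lower, with a median log2 fold change of 0.08. For all listed genes, 20% were higher and 21% lower. The groups did not overlap for 3 of the 16, against 23.1% of all listed genes. Bnip3, a mitophagy receptor, rose by 0.62 ± 0.11 (SE, limma, adjusted p = 6.2e-04), Vegfa, the endothelial growth factor, by 0.56 ± 0.10 (SE, limma, adjusted p = 8.5e-04) and Higd1a, a mitochondrial protein, by 0.48 ± 0.08 (SE, limma, adjusted p = 5.5e-04).

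Markers of the cells of the tissue were read from the same fit, in which 40.9% of all listed genes were called. Of 14 adipocyte markers, all listed, 13 were higher and none lower, Lpl being the one not called, and their summed level was 20553 to 25986 CPM in HFD mice and 32280 to 37077 CPM in IMC-treated mice. Of 22 macrophage markers, all listed, 20 were lower and none higher, Mrc1 and Cd163 not being called, and their summed level was 20576 to 26692 CPM in HFD mice and 11382 to 17333 CPM in IMC-treated mice. Mast cell markers (5 of 5 lower) summed to 489 to 1120 CPM and 156 to 316 CPM. Fibroblast and progenitor markers were lower for 5 of 8, mesothelial markers for 1 of 3 listed, and endothelial markers higher for 3 of 8. The groups overlapped for every endothelial and mesothelial marker, while 23.1% of all listed genes had no overlap. None of the T cell or red blood cell markers looked up was listed. In bulk tissue, fewer cells of a type and less RNA per cell cannot be told apart, and the part of these markers in the changes of the glycolysis genes was not tested.

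Skeletal muscle, a tissue rich in glycolytic enzymes, was looked for by 16 markers, of which 5 were listed. Acta1 and Myh2 were higher and the other 3 were not called, with a summed level of 16.9 to 22.4 CPM in HFD mice and 34.5 to 60.6 CPM in IMC-treated mice. Of all listed genes, 40.9% were called. Log2 fold changes of the 5 markers ran from -0.27 to 3.02, and 3.02 was also the largest over all listed genes. The defining muscle genes Ckm, Myh1, Myh4, Tnnt3, Mylpf, Atp2a1 and Mb were not listed. Pgam2, the phosphoglycerate mutase of muscle, was not listed either.

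The positions of the 10 genes are those of the GENCODE annotation of GRCm38. Hk1 spans chr10:62268855-62379908, Pfkl chr10:77986947-78010083, Hk2 chr6:82725025-82774454 and Pfkp chr13:6579768-6648777. Gpi1 lies at chr7:34201330-34230336, Ldha at chr7:46841475-46855627 and Aldoa at chr7:126795234-126800751. Pkm lies at chr9:59656368-59679375, Pgam1 at chr19:41911923-41918660 and Pgk1 at chrX:106187100-106203699.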

How the data were processed

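RNA was sequenced from gonadal WAT of 5 HFD and 6 IMC-treated mice, from libraries made with a directional kit. The submitters' processing notes name Trim Galore, FastQC, STAR and edgeR, without versions, and mm10. The authors counted reads per gene, removed genes with low counts, scaled by the upper quartile and deposited log2 CPM for 12787 genes. The same table holds the authors' own log2 fold change, mean log2 CPM, likelihood-ratio score, p-value and FDR as deposited, and none of these was used.

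The deposited log2 CPM were compared with limma 3.58.1 in R 4.3.3 (lmFit, eBayes with trend, group as the only factor, two-sided, Benjamini-Hochberg over all genes), with no further filter. A fold change on log2 CPM understates the change of low genes. Ratios of isozymes within a mouse were compared by exact permutation over every split of the mice. CPM move in steps worth 1 read, so reads were recovered within 0.05 reads of a whole number. They gave the depth of 22320022 to 25155366 reads per mouse and the alternative scalings, and they cover counting error only. Levels per kilobase used the longest coding transcript of GENCODE vM21, and the full exon length as an alternative chosen after seeing the data. Shared sequence was the share of 50-base stretches of that transcript found, on either strand, in a transcript of another gene. Promoter sequences were those of RefSeq (GRCm38.p6), found for all 10 members.

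The members and gene lists were chosen with earlier results of these data known. Genes were named by rule as all members, all other listed glycolytic enzymes and the 3 smallest p of each neighbouring list, and cell type markers and genes singled out for 1 mouse were added to these. Alternatives were a filter on low values, an added constant of 2 reads, total-count and median-of-ratios scaling, limma voom, other eBayes settings and leaving out each mouse. The labels name no batch, and mouse numbers do not pair the groups. The statistics were tested on simulated data. Tables and figures were made with Python 3.11.15, pandas 2.3.3 and numpy 2.4.6.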

Additional observations from a re-analysis of the deposited data

Results flagged for a closer look

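An outlying mouse was looked for in 78 sets of values, each of them 1 gene or ratio in 1 group, by the gap to the nearest mouse over the range of the group. It was found in 4 of them, where chance at 1 in 20 gives 3.9. Hk1 in HFD mouse 5 was 7.25 log2 CPM, with a gap of 0.755 of the range against a limit of 0.71 for 5 mice. In the same mouse the log2 ratio of Hk3 to Hk1 was 0.37, lower than in the other HFD mice (0.738 of the range), a value built on the same Hk1 level. Pgk1 in HFD mouse 1 was 3.81 log2 CPM (0.809 of the range), from a gene with few reads whose sequence is largely shared with other genes. H6pd in IMC-treated mouse 3 was 8.94 log2 CPM (0.683 of the range, over the limit for 6 mice).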

How the results depend on the processing

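Over 18 alternatives of the fit, no member changed direction. Members called lower numbered 4 instead of 2 under total-count scaling, where Gpi1 and Pfkp passed (limma), and the scaling moved the median of all genes by -0.03 log2 units and every fold change with it. Leaving out 1 mouse gave 6 to 7 called members, the added one being Gpi1 without HFD mouse 2 (adjusted p = 0.029, limma) or Pfkp without IMC-treated mouse 3 (adjusted p = 0.029, limma). Among the other enzymes, Pfkm passed without IMC-treated mouse 4 (adjusted p = 0.021, limma) and Gapdh without IMC-treated mouse 2 (adjusted p = 0.034, limma). Counts over all genes were 4299 to 5125 with a mouse left out. Of the 5 isozyme ratios, 3 passed, and 3 to 4 with a mouse left out. For Hk2 to Hk1 and Pfkl to Pfkp this follows from the separation of the single genes and is no further test. The fourth was Hk3 to Hk1 without HFD mouse 5 (-0.38, adjusted exact permutation p = 0.0119) or Ldhb to Ldha without IMC-treated mouse 4 (0.55, adjusted exact permutation p = 0.0198). Fits without HFD mouse 5 for Hk1, Slc2a3 and the ratios with Hk1 were read out as a choice made after seeing the data. Depth limits Gapdh most, with 12 to 35 reads per mouse. No paired analysis was possible because the labels give no mouse numbers shared by the groups.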
